A study of Mus musculus with 12 samples.

Results

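The 8 genes described here are the nuclear receptor PPAR alpha (Ppara) and 7 genes of fatty acid use in the liver that are known to respond to it: Cpt1a, Ehhadh, Cyp4a10, Cyp4a14, Pdk4, Fgf21 and Angptl4. They were taken by name from the 21490 gene symbols of the nascent RNA table, all 8 were found, and all 12 libraries were read for each. The study used Nascent-Seq, the sequencing of RNA still attached to chromatin, to follow transcription around the day. Livers came from adult male C57BL/6 mice aged 3 to 6 months that had lived in 12 hr of light and 12 hr of darkness for 2 weeks or more, and 2 replicates were taken every 4 hr from ZT0 to ZT20. Zeitgeber time (ZT) counts hours from lights on. No animal was treated or mutant in these libraries, and no time point served as a control. The methods call the samples independent, but the labels do not tie a library to an animal, so p-values measure only the spread between these libraries.

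PPAR alpha binds fatty acids and their derivatives and switches on genes for burning fat, above all when an animal is fasting. Mice eat mainly in the dark, so the light phase is the time of lower food intake. The products of its target genes carry fatty acids into mitochondria, shorten very long chains in peroxisomes, oxidise the far end of the chain in the endoplasmic reticulum, save glucose by braking pyruvate dehydrogenase, or leave the liver as hormones.

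Signal is given in reads per base pair of exon (rpbp), which allows levels to be compared between genes per length. The rpbp values of a library summed to between 118342 and 160545, and between 3390 and 4510 symbols per library lay above 6 rpbp. The libraries of ZT8 and ZT20 were sequenced in 2 lanes and the other 8 in 1 lane, so an effect of the lanes and a difference of these time points cannot be told apart. The change of signal with exon GC content was largest in ZT8 replicate 2, where it was -1.21 on the log2 scale, and lay between -0.59 and 0.55 in the other libraries. The hepatocyte markers Alb, Apoa1, Ttr, Tat and Cps1 summed to between 626 and 1860 rpbp. Markers of Kupffer cells summed to between 18 rpbp in ZT8 replicate 2 and 44.3 rpbp in ZT8 replicate 1, the 2 libraries of 1 time point. Of the adipocyte genes, Adipoq and Plin were at or below 0.1 rpbp in all 12 libraries, while Fabp4 reached 0.8 rpbp and Cfd 1.0 rpbp. The adipocyte genes summed to 1.2 rpbp at most, in ZT8 replicate 1. In whole liver, fewer cells of a type and less RNA per cell cannot be told apart. All 9 clock genes used to check the time labels were rhythmic, with Nr1d1 peaking at ZT6.22, Per2 at ZT14.3 and Arntl at ZT22.5.

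**Figure D1:**
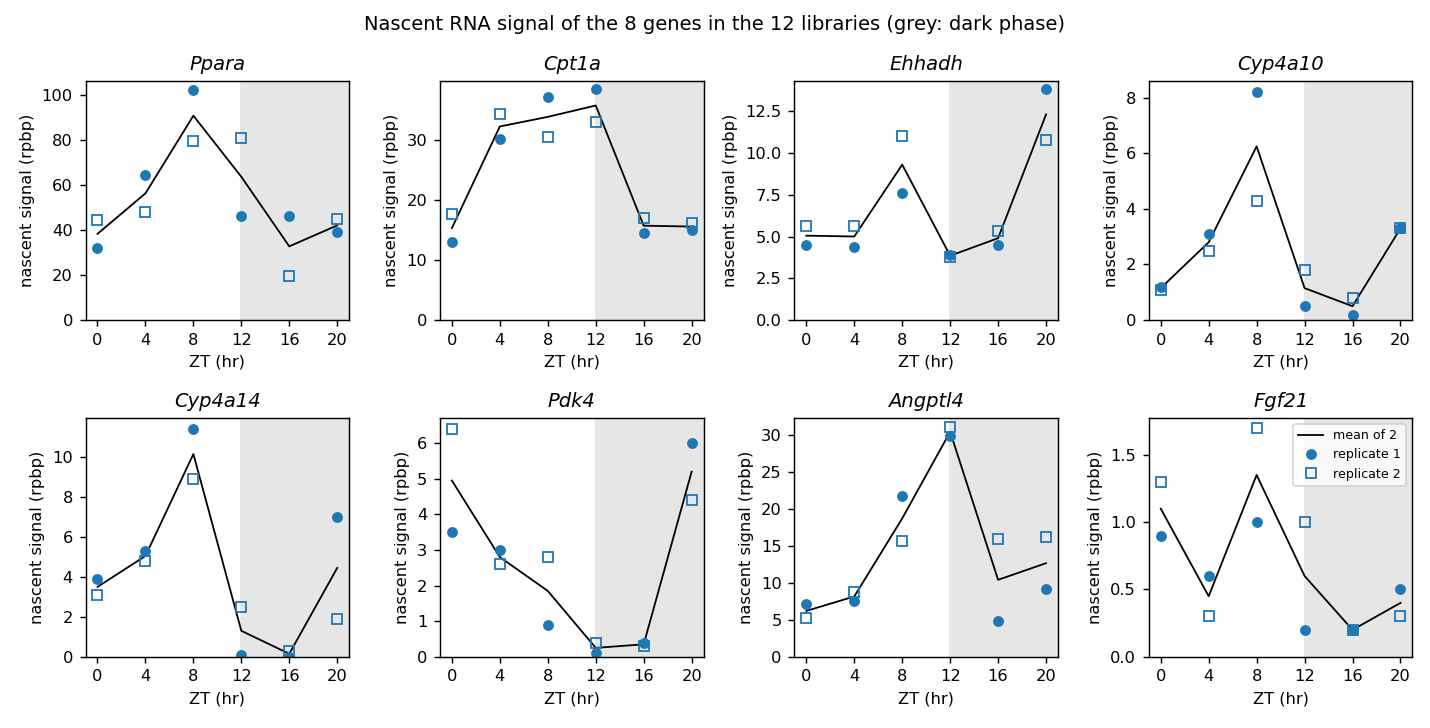
Nascent signal in rpbp (vertical axes, linear, from 0) against zeitgeber time in hr (horizontal axes) for the 8 genes, with filled circles for replicate 1, open squares for replicate 2, lines through the means of 2 and grey for the dark phase. Ppara reached 102 rpbp at ZT8, Cpt1a stayed between 30.2 and 38.6 rpbp from ZT4 to ZT12, and Pdk4 stayed at or below 0.4 rpbp at ZT12 and ZT16.

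A gene was tested where at least 1 library exceeded 6 rpbp, which left 6284 symbols and 7 of the 8 genes, all but Fgf21. F24 is the share of the variance over the 12 libraries that lies in the 24-hr Fourier component, and a rhythm was called where F24 exceeded 0.45, the unadjusted permutation p was under 0.05 and the ratio of highest to lowest value was over 1.5. By this rule 4 of the 7 tested genes were rhythmic (Ppara, Cpt1a, Pdk4 and Angptl4), against 15.2% of all tested genes. With permutation p adjusted by Benjamini-Hochberg across the table, 0 of the 7 were called, against 0.7% of all. The F-test of limma, which finds differences of any shape between the 6 time points on log2(rpbp + 1), called 5 of the 7 at an adjusted p under 0.05 (Cpt1a, Pdk4, Ehhadh, Cyp4a10 and Cyp4a14), against 7.65% of all tested genes. The median F24 was 0.593 over the 7 genes and 0.222 over all tested genes. Pdk4 exceeded 6 rpbp only in ZT0 replicate 2, Cyp4a10 only in ZT8 replicate 1, Cyp4a14 only at ZT8 and in ZT20 replicate 1, and Ehhadh only at ZT8 and ZT20. These 4 of the 5 genes called by the F-test were tested through the times at which they were high, so a difference was favoured by the threshold and the counts are a description of the 7 genes only.

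The receptor gene itself, Ppara, lies on the plus strand at chr15:85565994-85633249 (mm9) and was the most strongly transcribed of the 8. Its mean over the 12 libraries was 53.9 ± 23.4 rpbp (SD, n = 12), above 97.0% of the tested genes. The signal was 31.9 and 44.6 rpbp at ZT0, 64.3 and 48.1 at ZT4, 102 and 79.4 at ZT8, 46.3 and 80.8 at ZT12, 46.0 and 19.4 at ZT16, and 39.2 and 44.8 at ZT20. Both ZT8 libraries stood above those of ZT0, ZT4, ZT16 and ZT20 but overlapped the ZT12 pair, in which replicate 2 was far above replicate 1. The highest time-point mean was 2.77 times the lowest. The 24-hr component peaked at ZT8.08 with an F24 of 0.593 (one-sided permutation p = 0.0152, adjusted p = 0.191), and the peak times of the 2 series differed by 0.532 hr. Without ZT8 replicate 1 the gene was no longer called rhythmic, at an F24 of 0.514. The limma F-test did not pass for Ppara (adjusted p = 0.138), but passed without ZT16 replicate 1 (adjusted p = 0.0326).

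Cpt1a makes the carnitine palmitoyltransferase of the outer mitochondrial membrane, the step that controls the entry of long-chain fatty acids. It lies on the plus strand at chr19:3323348-3385732. The signal was 13.0 and 17.7 rpbp at ZT0, 30.2 and 34.4 at ZT4, 37.2 and 30.6 at ZT8, 38.6 and 33.0 at ZT12, 14.5 and 17 at ZT16, and 15.0 and 16.2 at ZT20. The 12 values formed a plateau from ZT4 to ZT12 and a floor from ZT16 to ZT0, with no overlap between these sets of libraries. Within the plateau and within the floor neighbouring time points overlapped. Cpt1a had the highest F24 of the 7 tested genes, 0.833, with a peak at ZT8.35 (permutation p = 0.00329, adjusted p = 0.112), and it passed the limma F-test (adjusted p = 0.0122). The F24 and the F-test calls held without any 1 of the 12 libraries, with F24 between 0.803 and 0.880.

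Ppara and Cpt1a peaked within 1 hr of each other, whereas Pdk4, described further on, peaked at ZT23.6. The promoters of these 3 genes are shown because they set the 2 genes with like peak times beside a rhythmic gene with another peak time. The correlation of Pdk4 over the 12 libraries was -0.05 with Ppara and -0.38 with Cpt1a. Each runs from 250 bases before the start to 50 after it (RefSeq, GRCm38.p6, 5′ to 3′ on the gene's own strand): chr15:85735526-85735825 for Ppara on the plus strand, chr19:3323051-3323350 for Cpt1a on the plus strand, and chr6:5496229-5496528 for Pdk4 on the minus strand. Capitals mark any of 6 motifs searched on both strands: the E-box CACGTG bound by clock proteins, the nuclear receptor hexamer AGGTCA, the D-box TTATGTAA, the CCAAT box, the GC box written as GGGCGG, and the TATA box written as TATAAA. No 2 of the marked matches overlap in these promoters.
Ppara: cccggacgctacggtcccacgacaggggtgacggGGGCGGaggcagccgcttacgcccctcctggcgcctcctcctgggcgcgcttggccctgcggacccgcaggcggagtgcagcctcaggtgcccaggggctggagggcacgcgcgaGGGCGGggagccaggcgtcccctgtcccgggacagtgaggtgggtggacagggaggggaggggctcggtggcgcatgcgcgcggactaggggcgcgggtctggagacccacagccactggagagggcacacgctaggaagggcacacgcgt
Cpt1a: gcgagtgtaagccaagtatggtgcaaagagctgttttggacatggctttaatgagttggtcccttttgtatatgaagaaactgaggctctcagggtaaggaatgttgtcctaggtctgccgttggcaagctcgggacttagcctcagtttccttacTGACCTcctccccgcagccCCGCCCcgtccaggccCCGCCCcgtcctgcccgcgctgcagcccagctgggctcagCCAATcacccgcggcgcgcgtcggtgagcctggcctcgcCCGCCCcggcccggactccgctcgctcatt
Pdk4: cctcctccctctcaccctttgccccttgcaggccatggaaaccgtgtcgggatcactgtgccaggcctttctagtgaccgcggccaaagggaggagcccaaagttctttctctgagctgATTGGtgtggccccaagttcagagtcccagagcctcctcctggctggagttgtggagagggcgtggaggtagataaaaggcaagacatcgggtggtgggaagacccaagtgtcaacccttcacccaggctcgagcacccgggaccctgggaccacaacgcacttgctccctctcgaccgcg

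The Cpt1a promoter held the hexamer AGGTCA on the reverse strand 94 to 89 bases before the start, 1 CCAAT and 3 GGGCGG. The Ppara promoter held GGGCGG at 2 places, and the Pdk4 promoter held 1 CCAAT, on the reverse strand. Of 32851 mouse promoters of this length, AGGTCA was found in 16.3%, CCAAT in 37.4%, GGGCGG in 35.7%, CACGTG in 7.2%, TATAAA in 13.6% and TTATGTAA in 0.9%. No motif of the 6 was found in all 3 promoters. GGGCGG was in those of Ppara and Cpt1a, and CCAAT in those of Cpt1a and Pdk4. GC content was 74.7% for Ppara, 62.3% for Cpt1a and 60.7% for Pdk4, against a median of 52.7% over all promoters.

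Ehhadh, a peroxisomal enzyme with hydratase and dehydrogenase activity, showed another shape. It lies on the minus strand at chr16:21761364-21787869. The signal was 4.5 and 5.6 rpbp at ZT0, 4.4 and 5.6 at ZT4, 7.6 and 11 at ZT8, 3.9 and 3.8 at ZT12, 4.5 and 5.3 at ZT16, and 13.8 and 10.8 at ZT20. All 4 libraries of ZT8 and ZT20 lay above all 8 libraries of the other times, giving peaks 12 hr apart. Its F24 was 0.0757 (permutation p = 0.700), while the limma F-test passed (adjusted p = 0.0207). That call was lost without either ZT12 or either ZT20 library, at adjusted p between 0.0502 and 0.0773.

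The high times of Ehhadh are the times sequenced in 2 lanes. A limma contrast of ZT8 and ZT20 against the other 4 time points, added after seeing the data, gave 1.03 ± 0.14 (SE) on the log2(rpbp + 1) scale for Ehhadh (adjusted p = 0.0157), 1.30 ± 0.21 for Cyp4a10 (adjusted p = 0.0198) and 1.39 ± 0.33 for Cyp4a14 (adjusted p = 0.0403). Of all tested genes 3.25% were higher at the 2-lane times, but nothing is read from the 3 of 7 here, since these 3 genes passed the threshold only through 2-lane libraries and the pattern of Ehhadh prompted the contrast. Cpt1a stood at 0.00 ± 0.13 in this contrast (adjusted p = 0.990), Ppara at 0.46 ± 0.24 (adjusted p = 0.228), Pdk4 at 0.72 ± 0.21 (adjusted p = 0.0674) and Angptl4 at 0.42 ± 0.26 (adjusted p = 0.307). A limma F-test over the 4 time points of 1 lane took its spread from the fit on all 12 libraries. It left 2 of the 7 called, Pdk4 (adjusted p = 0.0118) and Cpt1a (adjusted p = 0.0177), against 3.34% of all tested genes. A fit on the 8 libraries of 1 lane by themselves, which was run first, called the same 2 genes (adjusted p = 0.0174 and 0.0483), against 1.91% of all. Ehhadh was at an adjusted p of 0.687 over the 1-lane times, so its difference rests on the 2-lane times.

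The 12-hr Fourier component, also computed after seeing the data, held 0.817 of the variance of Ehhadh (permutation p = 0.00219, adjusted p = 0.236), with peaks at ZT7.86 and 12 hr later. For Cyp4a10 the share was 0.575 (permutation p = 0.00666, adjusted p = 0.236). Both met the rule used for F24 when it was applied to this component, as did 11.7% of all tested genes, which restates the pattern that prompted it. No gene of the 6284 passed after adjustment of the permutation p, and 736 met the rule at an unadjusted p.

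**Figure D2:**
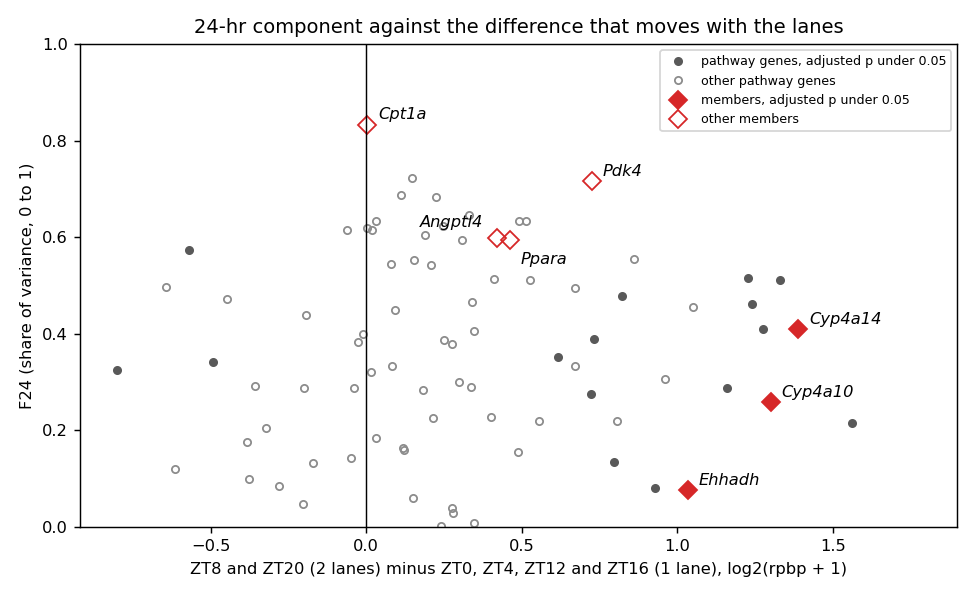
F24, a share from 0 to 1 (vertical axis), against the difference of ZT8 and ZT20 from the other 4 time points in log2(rpbp + 1) (horizontal axis) for the 7 tested genes (diamonds) and the 77 tested genes of the pathway lists (circles), with filled symbols for an adjusted limma p under 0.05. Ehhadh combined a difference of 1.03 with an F24 of 0.0757, and Cpt1a a difference of 0.00 with an F24 of 0.833.

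Cyp4a10 and Cyp4a14 make fatty acid omega-hydroxylases of the endoplasmic reticulum and are textbook PPAR alpha targets in rodents. They are neighbours on chromosome 4. The row of Cyp4a14 spans chr4:115158750-115168737 on the minus strand. Its signal was 3.9 and 3.1 rpbp at ZT0, 5.3 and 4.8 at ZT4, 11.4 and 8.9 at ZT8, 0.1 and 2.5 at ZT12, 0.0 and 0.3 at ZT16, and 7.0 and 1.9 at ZT20. Both ZT8 libraries were above all others, both ZT16 libraries were at or near 0, and the ZT20 pair was far apart. The F24 of 0.410 missed the limit (permutation p = 0.0952, peak at ZT5.26), but without ZT20 replicate 1 the gene was called rhythmic at an F24 of 0.645. The limma F-test passed (adjusted p = 0.0291), and was lost in 6 of the 12 fits without a library (either ZT0, either ZT8, ZT16 replicate 1 or ZT4 replicate 2), at adjusted p up to 0.0720.

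Cyp4a10 was measured at 1.2 and 1.1 rpbp at ZT0, 3.1 and 2.5 at ZT4, 8.2 and 4.3 at ZT8, 0.5 and 1.8 at ZT12, 0.2 and 0.8 at ZT16, and 3.3 in both libraries of ZT20. Both ZT8 libraries were again the highest, both ZT20 libraries came next, and ZT0, ZT12 and ZT16 were low. Its F24 was 0.258 with a peak at ZT6.27 (permutation p = 0.251), and the limma F-test passed (adjusted p = 0.0210) but not without either ZT0 library (adjusted p = 0.0536 and 0.0507). Without ZT8 replicate 1 it fell under the threshold of 6 rpbp and was not tested. With the lanes as a block, in which values were centred and permuted within the 2-lane and the 1-lane libraries, both genes were called rhythmic, Cyp4a10 at an F24 of 0.594 (permutation p = 0.00399) and Cyp4a14 at 0.721 (permutation p = 0.00298). That made 6 of the 7 genes rhythmic, against 19.1% of all tested genes, with adjusted permutation p of 0.110 and 0.0989 for these 2. With the block, F24 is a share of the variance within the lane groups only, so it is not on the scale of the F24 without it. Both genes passed the threshold only through 2-lane libraries in which they were high, so these calls and the count are a description. Across the 12 libraries the log2 values of the 2 genes had a Pearson correlation of 0.877.

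The Cyp4a10 value is uncertain because its row spans chr4:115190906-115294971, which also contains the rows of Cyp4a31 and Cyp4a32, near-identical family members. GENCODE M1 places Cyp4a10 on the plus strand at chr4:115190869-115206254, over the same bases as the Cyp4a31 row (chr4:115190906-115205473). Cyp4a31 ranged from 0 to 8.5 rpbp and followed Cyp4a10 with a correlation of 0.988 over the 12 libraries. Cyp4a32, at chr4:115273543-115294971, ranged from 2.0 to 28.5 rpbp, was highest in ZT4 replicate 2 and had a correlation of 0.571 with Cyp4a10. AK135671, which overlaps Cyp4a14, reached 1.1 rpbp at most.

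A direct repeat of the hexamer with a spacing of 1 base, the arrangement that PPAR alpha and its partner RXR bind, was searched as a copy of AGGNCA, any base and a further AGGNCA, on both strands within 5000 bases of each gene start (mm9). It was found for 2 of the 8 genes, Cyp4a10 and Fgf21, and for 18.4% of 14195 annotated genes. The Cyp4a10 match lies at position -1431 from the start, upstream, at chr4:115189432-115189444 and the Fgf21 match 4713 bases after the start of the gene, downstream of it, at chr7:52866141-52866153, both on the minus strand. They are shown with 8 flanking bases on either side because the 13 matching bases, in capitals, can be compared directly.
Cyp4a10 match: atgtgtggAGGTCAGAGGACAatttacag
Fgf21 match: acatttaaAGGTCAGAGGACAacttggag

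**Figure D3:**
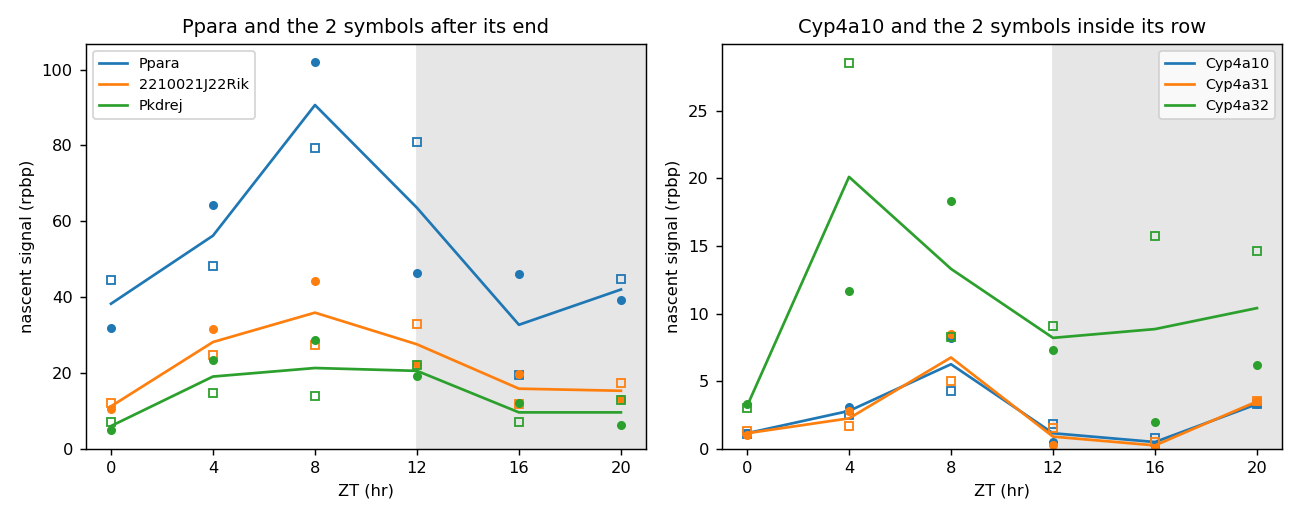
Nascent signal in rpbp (vertical axes, linear, from 0) against zeitgeber time in hr for Ppara with the 2 symbols that follow its end (left) and Cyp4a10 with the 2 symbols inside its row (right), with filled circles for replicate 1, open squares for replicate 2, and lines through the means of 2. The Cyp4a31 line lies on that of Cyp4a10 (correlation 0.988), while Cyp4a32 reached 28.5 rpbp at ZT4.

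A pair of symbols beyond the end of Ppara, named after their values were seen, had profiles like that of the receptor gene. The row of 2210021J22Rik lies 4152 bases and that of Pkdrej 11856 bases beyond the end of Ppara. Both are annotated on the opposite strand, so their own ends face Ppara, but the signal was summed without regard to strand. 2210021J22Rik ranged from 10.4 to 44.3 rpbp and peaked at ZT8.38 (F24 0.695, permutation p = 0.00471, adjusted p = 0.129). Pkdrej ranged from 5.0 to 28.8 rpbp and peaked at ZT8.70 (F24 0.609, permutation p = 0.0178, adjusted p = 0.202). Their correlations with Ppara over the 12 libraries were 0.877 and 0.788.

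Pdk4 encodes a kinase that inactivates pyruvate dehydrogenase and so spares glucose when fat is burned. It lies on the minus strand at chr6:5433351-5446278. The signal was 3.5 and 6.4 rpbp at ZT0, 3.0 and 2.6 at ZT4, 0.9 and 2.8 at ZT8, 0.1 and 0.4 at ZT12, 0.4 and 0.3 at ZT16, and 6.0 and 4.4 at ZT20. The 4 libraries of ZT12 and ZT16 were the lowest and did not overlap the rest, while ZT20 and ZT0 overlapped at the top. The highest time-point mean, 5.20 ± 1.13 (SD, n = 2) at ZT20, was 20.8 times the lowest, 0.25 ± 0.21 at ZT12, a ratio that rests on values near the rounding step of 0.1 rpbp. Pdk4 peaked at ZT23.6 with an F24 of 0.716 (permutation p = 0.00614, adjusted p = 0.140), and the limma F-test passed (adjusted p = 0.00992). Its signal was low at ZT12, a time when that of Cpt1a was high, and high at ZT20, when Cpt1a was on its floor. Without ZT0 replicate 2 it fell under the threshold of 6 rpbp and was not tested.

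Angptl4 encodes a secreted inhibitor of lipoprotein lipase. It lies on the minus strand at chr17:33911845-33918451. The signal was 7.1 and 5.3 rpbp at ZT0, 7.6 and 8.7 at ZT4, 21.7 and 15.7 at ZT8, 29.8 and 31.0 at ZT12, 4.9 and 15.9 at ZT16, and 9.1 and 16.2 at ZT20. Both ZT12 libraries were above all others, and the replicates of ZT16 and ZT20 were far apart. The highest time-point mean was 4.90 times the lowest. The 24-hr component peaked at ZT11.6, later than in Ppara and Cpt1a by the time of day, with an F24 of 0.599 (permutation p = 0.0160, adjusted p = 0.194). The peak times of the 2 series, ZT10.3 and ZT12.9, differed by 2.57 hr, with time points 4 hr apart. The rhythm call was lost without ZT12 replicate 2, at an F24 of 0.513. The limma F-test missed the threshold with all libraries (adjusted p = 0.0570) and passed without ZT16 replicate 1 (adjusted p = 0.0101) or replicate 2 (adjusted p = 0.00795). The row of Kifc1, which overlaps Angptl4 because it spans chr17:27054036-34027561, stayed at or below 0.2 rpbp.

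Fgf21, a hormone that the fasting liver releases, was barely transcribed in these libraries. It lies on the minus strand at chr7:52869260-52870860. The signal was 0.9 and 1.3 rpbp at ZT0, 0.6 and 0.3 at ZT4, 1.0 and 1.7 at ZT8, 0.2 and 1.0 at ZT12, 0.2 and 0.2 at ZT16, and 0.5 and 0.3 at ZT20. Its highest value, 1.7 rpbp, lay well under the threshold of 6, so it was left out of the tests across genes. The ZT8 pair overlapped the ZT0 pair, and the ZT16 values were 2 rounding steps above 0. A permutation test of its F24 alone gave 0.273 (p = 0.238).

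**Figure D4:**
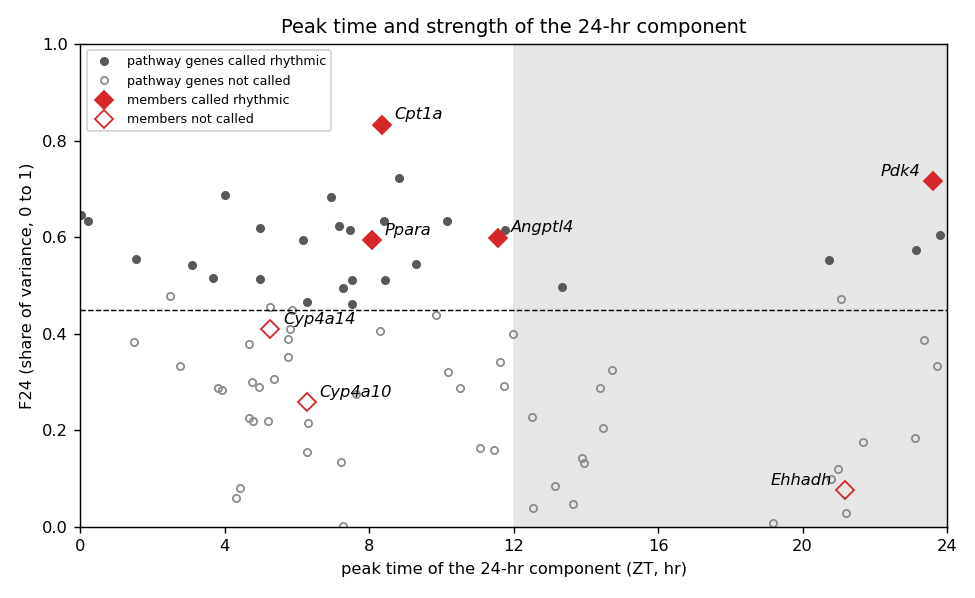
F24, a share from 0 to 1 (vertical axis), against the peak time of the 24-hr component in hr of zeitgeber time (horizontal axis) for the 7 tested genes (diamonds) and the 77 tested genes of the pathway lists (circles), with filled symbols for genes called rhythmic, a dashed line at an F24 of 0.45 and grey for the dark phase. Ppara, Cpt1a and Angptl4 peaked between ZT8.08 and ZT11.6, and Pdk4 at ZT23.6.

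To set opposite times of day against each other, 3 limma contrasts between time points 12 hr apart were made, each between libraries with the same number of lanes. From ZT0 to ZT12, lights on to lights off, 3 of the 7 tested genes were called, against 4.44% of all tested genes (2.85% higher and 1.59% lower). Angptl4 rose by 2.14 ± 0.43 (SE) on the log2(rpbp + 1) scale (adjusted p = 0.0219), Cpt1a rose by 1.18 ± 0.21 (adjusted p = 0.0143), and Pdk4 fell by 2.22 ± 0.34 (adjusted p = 0.00688). The Angptl4 call was lost without any 1 of the 4 libraries compared (1.95 to 2.32), that of Cpt1a without ZT0 replicate 1 (0.97) or either ZT12 library (1.07 and 1.29), and that of Pdk4 without ZT12 replicate 1 (-2.04). No direction turned in these fits. Pdk4 passed the threshold on signal only through ZT0 replicate 2, on the high side of this contrast, so its call is a description.

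At ZT16 against ZT4, 2 of the 7 were called, against 2.1% of all tested genes (0.764% higher and 1.34% lower). Cyp4a14 fell by 2.41 ± 0.53 (adjusted p = 0.04997) and Cpt1a fell by 0.99 ± 0.21 (adjusted p = 0.0435), where the median over all tested genes was -0.20. After rescaling of the libraries the differences were -2.32 and -0.77 and neither was called. Each call was also lost in 8 of the 12 fits without a library, for Cyp4a14 without any of the ZT0, ZT4, ZT8 or ZT16 libraries (-2.60 to -2.22) and for Cpt1a without any of the ZT4, ZT12, ZT16 or ZT20 libraries (-1.10 to -0.88). The summed hepatocyte markers were also lower at ZT16, with means of 741 rpbp at ZT16 and 1168.5 rpbp at ZT4, and their part in these differences was not tested. Pdk4 at -1.49 ± 0.34 (adjusted p = 0.0521) and Cyp4a10 at -1.37 ± 0.34 (adjusted p = 0.0707) missed the threshold.

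At ZT20 against ZT8, the pair of times sequenced in 2 lanes, Cpt1a was the 1 gene of the 7 called, against 1.58% of all tested genes (1.16% higher and 0.414% lower). It fell by 1.07 ± 0.21 (adjusted p = 0.0408), and the call was lost without any of the ZT4, ZT8, ZT12 or ZT20 libraries (-1.20 to -0.93). Ppara stood at -1.08 ± 0.39 (adjusted p = 0.251), Pdk4 at 1.19 ± 0.34 (adjusted p = 0.132) and Ehhadh at 0.38 ± 0.23 (adjusted p = 0.598). The difference of Ppara was as large as that of Cpt1a, with a larger error.

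**Figure D5:**
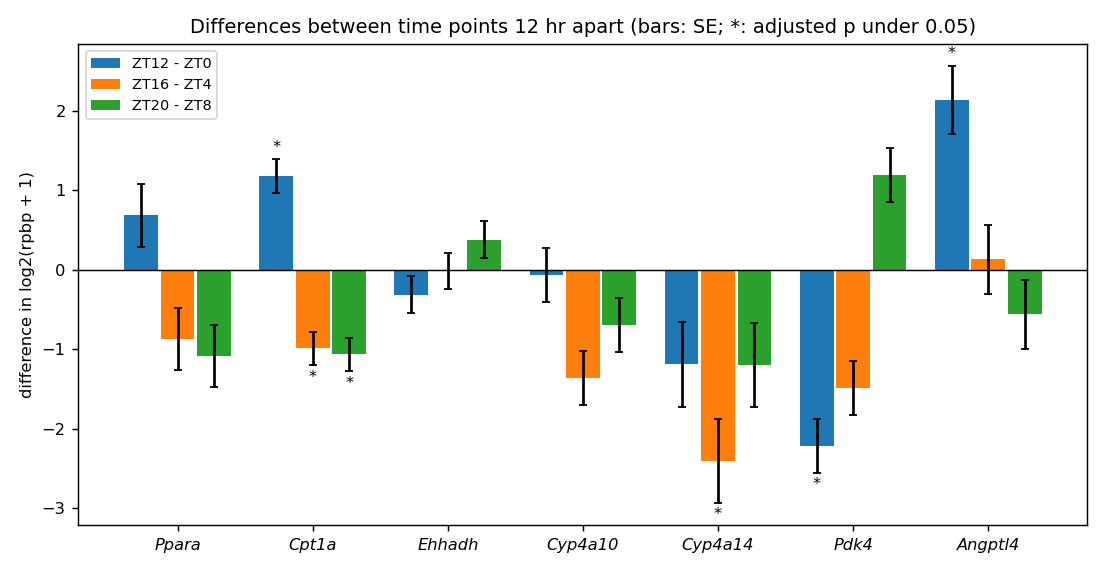
Differences in log2(rpbp + 1) (vertical axis) between 3 pairs of time points 12 hr apart for the 7 tested genes (horizontal axis), with bars for the limma estimate, error bars of 1 SE and asterisks for an adjusted p under 0.05. Cpt1a was called in all 3 contrasts, and Angptl4 at 2.14 and Pdk4 at -2.22 moved in opposite directions between ZT0 and ZT12.

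The other genes of the pathway were read from 8 lists with 92 genes, of which 90 were in the table and 77 were tested. Of the 77, 26 were called rhythmic (15.2% of all tested genes were) and 19 passed the limma F-test (7.65% of all). The median F24 of the 77 was 0.352, against 0.222 over all tested genes. Of the 26 rhythmic genes, 14 peaked between ZT6 and ZT12, where Ppara, Cpt1a and Angptl4 also peaked, against 23.8% of the 956 rhythmic genes. Members and lists were chosen with earlier results of these data known. Some of the 14, such as Acot3, exceeded 6 rpbp only at ZT8. The counts are therefore a description of the lists. At ZT8 and ZT20 against the other times 12 of the 77 were higher and 3 lower (3.25% and 2.37% of all). Over the 1-lane times 3 of the 77 passed the F-test, near the 3.34% of all tested genes that did. They were Fabp1 (adjusted p = 0.00350), Adfp (adjusted p = 0.0114) and Acaa1b (adjusted p = 0.0332). Among the 12 higher were Decr1, Abcd3, Pank1, Pdk1, Aldh3a2, Cyp4a31, Acot3 and Acot4, named below. Over the 1-lane times these were at adjusted F-test p of 0.341, 0.452, 0.127, 0.695, 0.0586, 0.146, 0.396 and 0.141. For such genes a time difference and the lanes cannot be told apart.

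In peroxisomal beta-oxidation, the pathway of Ehhadh, 4 of 12 tested genes were rhythmic and 4 passed the F-test. Of all tested genes 15.2% and 7.65% were so called, and the same shares stand beside the counts of each list below. The counts by list are small and are also a description. Abcd3, a transporter of the peroxisomal membrane, was high at ZT8 (43.6 rpbp) and ZT20 (37.2 rpbp) as Ehhadh was (adjusted p = 0.0447). The thiolase gene Acaa1b was at 166 rpbp at ZT8 and 24.4 at ZT16 (adjusted p = 0.0153), and Pex11a, which acts in peroxisome division, was rhythmic with a peak at ZT7.28 (permutation p = 0.0381).

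In mitochondrial beta-oxidation 7 of 15 tested genes were rhythmic and 1, Decr1, passed the F-test (adjusted p = 0.0447, highest at ZT8 with 13.4 rpbp). Acaa2, the thiolase of the mitochondrion, peaked at ZT4.98 (permutation p = 0.0373). Of the genes for fatty acid activation and mitochondrial entry, 3 of 8 were rhythmic, and of ketone body synthesis 1 of 4, and in both lists 0 passed the limma F-test. The microsomal list had 0 rhythmic genes of 5 and 2 that passed the F-test. Cyp4a31 (adjusted p = 0.0138), whose row shares its bases with Cyp4a10, exceeded 6 rpbp only in ZT8 replicate 1, so its call is a description. The other, the aldehyde dehydrogenase gene Aldh3a2 (adjusted p = 0.0181), was at 73.95 rpbp at ZT8 and 6.40 at ZT16.

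Among other PPAR alpha targets 4 of 12 tested genes were rhythmic and 7 passed the F-test. Fabp1, the liver fatty acid binding protein, had a mean of 233 rpbp at ZT8 and 24.3 at ZT12 (adjusted p = 0.00266) and fell by 2.79 on the log2 scale from ZT0 to ZT12 (adjusted p = 0.00244), the direction of Pdk4. Adfp, which coats lipid droplets, fell by 1.901 in the same contrast (adjusted p = 0.00412) and Vnn1, a pantetheinase, by 2.15 (adjusted p = 0.0387). The thioesterase genes Acot3 and Acot4 peaked at ZT7.51 and ZT7.52 (permutation p = 0.04565 and 0.0246). Pank1 and the fatty acid transporter Cd36 passed the F-test only (adjusted p = 0.0172 and 0.0425), both highest at ZT8. Acot3, Cd36 and Vnn1 exceeded 6 rpbp only at ZT8, so a difference was favoured by the threshold and their calls are a description.

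Of receptor partners and co-regulators 6 of 15 were rhythmic and 3 passed the F-test. The related receptor Ppard peaked at ZT20.7 (permutation p = 0.00473) and was higher at ZT20 than at ZT8 by 2.32 ± 0.39 (SE, log2 scale, adjusted p = 0.0216), while Ppara at ZT20 was at -1.08. Lpin2, of the lipin family, peaked at ZT10.1 (permutation p = 0.00737). Among relatives of the kinase and the secreted proteins 1 of 6 was rhythmic and 2 passed the F-test. Pdk1 was highest at ZT8 (6.50 rpbp, adjusted p = 0.0280) and exceeded 6 rpbp only there, so its call is a description. Angptl6 peaked at ZT23.1 (permutation p = 0.0162), near the peak of Pdk4.

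The genes whose pattern was most like each of the 7 were found by the correlation of log2(rpbp + 1) over the 12 libraries, leaving out symbols whose rows overlap the gene (such as Cyp4a31 for Cyp4a10), and are given as a description. Cyp4a14 was most like Acaa2 (0.939), Slc10a1 (0.918) and Pgm2 (0.905), and Pdk4 was most like Ptprk (0.948), AK142254 (0.947) and Gckr (0.935). For Ppara these were 1700109H08Rik (0.968), A730008H23Rik (0.943) and Sord (0.941), and for Cpt1a 2310004L02Rik (0.938), Dnmbp (0.923) and 4833426J09Rik (0.913). For Angptl4 they were Pptc7 (0.890), 2010111I01Rik (0.871) and Mnk2 (0.870). Cyp4a10 was most like AK007154 (0.947), Msra (0.907) and AK015004 (0.892), and Ehhadh most like 3222402P14Rik (0.926), BC026782 (0.915) and AK019348 (0.911). None of the 7 genes appeared among the 3 most like any other. Between members, the highest correlation was that of Cyp4a10 with Cyp4a14 (0.877), that of Ppara with Cpt1a was 0.682, and the lowest was that of Pdk4 with Angptl4 (-0.54).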

How the data were processed

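Nascent RNA was extracted from the chromatin of purified liver nuclei, depleted of polyadenylated RNA and sequenced (12 libraries). The authors aligned reads to mm9 with TopHat (the submitters' processing notes also name CASAVA 1.7) and deposited the signal, coverage over merged exons divided by exon length in rpbp, scaled between libraries, rounded to 1 decimal and blind to strand. The deposited table also holds the authors' F24, phases and p-values, which were not used. Depth is not given as counts, so no count model was fitted.

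Groups were taken from sample titles. For symbols above 6 rpbp in at least 1 library, F24 was computed on linear values with 100000 permutations per gene (one-sided), following the study's criteria, and limma 3.58.1 in R 4.3.3 was run on log2(rpbp + 1). Adjustment was by Benjamini-Hochberg over all tested genes. Scripts were tested on simulated data. Exon positions, strand and GC content came from GENCODE M1 (NCBIM37, the same build), with GC for 98.9% of tested symbols.

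The 8 members and all lists were chosen with earlier results of these data known. Named are the members, list genes that were rhythmic or passed the F-test (20 at most, by smallest p), the 3 genes most like each tested member (symbols that overlap it left out), overlapping symbols and clock genes. Some genes that this rule selects are not reported here. The alternatives were thresholds of 3 and 12 rpbp or none, 0.1 as pseudocount, log2 values, adjusted p, each series or library alone or left out, rescaled libraries, removal of GC trends in 20 bins, a replicate block and the lanes as a block. The contrast of lanes, both tests within the 1-lane times and the 12-hr component were chosen after seeing the data.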

Additional observations from a re-analysis of the deposited data

How the results depend on the processing

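With 2 libraries per time point the spread at each time is known poorly, and no called difference of a member changed direction under any alternative run. The 4 rhythmic members became 0 with adjusted p, 0 in replicate 1 alone and 0 in replicate 2 alone, where all 720 orders of 6 values were enumerated (exact p from 0.0833 to 0.333 for these 4), and ranged from 3 to 5 without 1 library. The 5 members called by the limma F-test became 1 without a filter on low values, 2 at a threshold of 12 rpbp (4 members tested), 2 over the 1-lane times and 2 in the fit on the 1-lane libraries alone, and ranged from 2 to 6 without 1 library. The 3 called at ZT12 against ZT0 ranged from 0 to 3. The 2 called at ZT16 against ZT4 became 1 with a pseudocount of 0.1 or a threshold of 12 rpbp, and 0 with a threshold of 3 rpbp, no filter, rescaled libraries, the GC trend removed or the replicate block (0 to 2 without 1 library). The 1 called at ZT20 against ZT8 became 0 with the pseudocount of 0.1, no filter or the replicate block (0 to 1). For the pathway lists, the 26 rhythmic genes became 0 with adjusted p and 2 in each series alone (15 to 29). The 19 called by the F-test became 12 with the pseudocount of 0.1, 12 with the replicate block, 4 without a filter, 3 over the 1-lane times and 2 in the fit on the 1-lane libraries (6 to 24). The list counts without a filter were 3 at ZT12 against ZT0 (1 to 11 without 1 library), 0 at ZT16 against ZT4 (0 to 5) and 1 at ZT20 against ZT8 (0 to 7), and at ZT16 against ZT4 they were 2 at a threshold of 12 rpbp and 2 with the GC trend removed. Among all tested genes the 956 rhythmic genes became 44 with adjusted p, 260 and 171 in replicate 1 and replicate 2 alone, 508 at a threshold of 12 rpbp and 2225 without a filter (799 to 1239). The 481 called by the F-test became 133 without a filter, 210 over the 1-lane times and 120 in the fit on the 1-lane libraries (167 to 663). The contrasts ranged from 25 to 391, from 22 to 259 and from 4 to 166 genes without 1 library. Those at ZT16 against ZT4 came to 84 at a threshold of 12 rpbp and 24 without a filter, and those at ZT20 against ZT8 to 45 without a filter. Stricter thresholds and no filter change how many genes are tested, and for the other changes the cause was not tested.

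Same-numbered libraries did not deviate together at all time points, and the replicate number was left out of the main tests. Their deviations correlated at -0.117 to 0.320 over 15 pairs of time points, with 5 over 0.1 and the highest for ZT8 with ZT20. With the replicate block, 4 members stayed rhythmic and 5 passed the F-test by number. The member calls at ZT16 against ZT4 and at ZT20 against ZT8 became 0 with it.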
